A study of Mus musculus with 2 samples.

Results

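Histone-rich S-phase crypt cells are crypt cells whose transcripts hold an unusually large share of replication-dependent histone messages. They were chosen among cells with at least 5000 unique transcript counts (UMIs) and fewer than 20 Chga UMIs, a limit that leaves out cells rich in the granule protein chromogranin A. In each such eligible cell the share of UMIs was taken for 3 groups of genes. The replication-entry group was Cdt1, Ung, Mcm2, Mcm3, Mcm4 and Mcm6. The histone group was Hist1h1a, Hist1h1b, Hist1h2ae, Hist1h2ap and Hist1h3c, and the mitotic group was Cenpf, Ube2c, Ccnb1, Cdkn3, Cdc20 and Cenpa. Each share was ranked among the eligible cells from 0 to 1, and a cell was chosen when its histone rank was at least 0.80 and above both other ranks. Of the cells kept by the authors, 380 had fewer UMIs, 320 more had at least 20 Chga UMIs and 1635 were eligible. The cells, selected on these measured shares, were 225, which is 13.8% of the eligible and 9.64% of the kept cells. By the same ranks, 300 eligible cells made a replication-entry set, 231 a G2 and mitosis set, and 879 belonged to none of the 3 sets.

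The cells came from small-intestinal crypts of a ChgaCreER-tdTomato::Rosa26LSL-eYFP mouse given 5 daily injections of 1 mg tamoxifen. In this line Chga drives a tamoxifen-activated Cre together with tdTomato, and recombination at Rosa26 switches on eYFP in the cell and its descendants, so every cell of the library carries these alleles and the tamoxifen. eYFP-positive and bulk epithelial sorts were marked with 4 hashtag antibodies and pooled into 1 gene expression library with 1 hashtag library. Which hashtag marked which sort is not stated in the labels used here, so origins are called tags 1 and 2 or tags 3 and 4, and with 1 library there is no replicate and no test. The labels name 1 mouse, yet among histone-rich cells of tags 1 and 2, 52 had at least 3 Xist UMIs and no UMI of 4 Y-linked genes, while 27 had Y-linked UMIs with Xist at 2 or fewer. All 35 histone-rich cells of tags 3 and 4 had Xist and no Y-linked UMI. The shares of histone-rich cells by tag, of YFP among them, and the ratios of genes named between tag pairs are therefore also given without Y-linked cells.

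Newly copied DNA must be wrapped on new histone proteins, and the genes for core and linker histones are switched on together while DNA is copied and switched off when copying ends. Their messages mostly end in a stem-loop in place of a poly(A) tail and are held by the stem-loop binding protein Slbp, so a 3-prime kit that primes on poly(A) captures only part of them. In the crypt, proliferation takes place in stem cells and in the transit-amplifying cells above them, and cells leave the cycle as they become absorptive or secretory. Many Hist genes are near-identical copies, so counts of single Hist genes are uncertain, and the 3-prime capture means that levels are compared between cells and not between genes.

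The promoters of the linker histone H1 genes are shown first, because these genes held 41.0% of the Hist UMIs of the chosen cells (H2A genes held 40.6%) and share letters close to their start. They are the 200 bases before the annotated start from RefSeq (GRCm38.p6), 5′ to 3′, and capitals mark 3 motifs on either strand. The first is CCAAT, which the factor NF-Y binds. The second is the TATA box, searched as TATAAA, and the third the H1 box, searched as AAACACA. Hist1h3c of the rule is shown beside them, and Top2a, a gene of G2 and mitosis among the marker genes, with CCAAT and the CHR element of late cell-cycle genes, searched as TTTGAA, in capitals.
Hist1h1b (H1f5, chr13:21780626-21780825, minus strand): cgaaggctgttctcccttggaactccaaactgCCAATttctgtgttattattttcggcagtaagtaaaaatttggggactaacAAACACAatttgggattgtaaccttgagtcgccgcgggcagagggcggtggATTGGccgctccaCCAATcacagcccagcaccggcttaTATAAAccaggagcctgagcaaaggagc
Hist1h1e (H1f4, chr13:23622559-23622758, minus strand): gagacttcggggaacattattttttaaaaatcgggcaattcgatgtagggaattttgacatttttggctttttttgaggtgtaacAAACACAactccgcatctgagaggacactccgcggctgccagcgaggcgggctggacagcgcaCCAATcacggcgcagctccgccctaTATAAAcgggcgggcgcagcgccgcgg
Hist1h1d (H1f3, chr13:23554832-23555031, plus strand): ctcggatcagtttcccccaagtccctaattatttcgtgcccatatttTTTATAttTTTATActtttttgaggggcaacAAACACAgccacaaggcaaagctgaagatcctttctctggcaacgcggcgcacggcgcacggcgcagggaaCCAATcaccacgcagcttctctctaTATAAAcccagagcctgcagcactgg
Hist1h1c (H1f2, chr13:23738607-23738806, plus strand): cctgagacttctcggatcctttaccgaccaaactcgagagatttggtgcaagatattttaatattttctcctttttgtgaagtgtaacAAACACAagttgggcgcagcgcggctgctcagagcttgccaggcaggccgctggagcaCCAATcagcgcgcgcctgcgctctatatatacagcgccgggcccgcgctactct
Hist1h1a (H1f1, chr13:23763468-23763667, plus strand): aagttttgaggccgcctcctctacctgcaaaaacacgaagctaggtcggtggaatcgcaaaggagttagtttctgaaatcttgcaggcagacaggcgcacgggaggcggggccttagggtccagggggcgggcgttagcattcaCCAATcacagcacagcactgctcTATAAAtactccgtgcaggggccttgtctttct
Hist1h3c (H3c3, chr13:23745522-23745721, minus strand): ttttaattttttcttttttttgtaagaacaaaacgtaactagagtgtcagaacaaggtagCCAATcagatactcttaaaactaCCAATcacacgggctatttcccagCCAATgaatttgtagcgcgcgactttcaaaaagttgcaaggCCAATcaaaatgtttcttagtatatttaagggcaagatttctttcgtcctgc
Top2a (chr11:99024190-99024389, minus strand): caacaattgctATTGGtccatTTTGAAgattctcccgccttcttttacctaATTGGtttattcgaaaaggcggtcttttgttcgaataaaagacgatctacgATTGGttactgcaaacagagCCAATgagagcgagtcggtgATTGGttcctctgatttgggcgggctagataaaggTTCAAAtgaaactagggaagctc

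In all 5 H1 promoters a CCAAT lay on the plus strand of the gene between 51 and 56 bases before the start. In Hist1h1b, Hist1h1e, Hist1h1d and Hist1h1c an AAACACA lay further out, beginning 112 to 122 bases before the start. Hist1h1a had the CCAAT and a TATAAA but no AAACACA in the 250 bases searched. The 4 CCAAT of Hist1h3c began 52, 93, 117 and 140 bases before its start. Among the 32 Hist genes with at least 200 UMIs over the eligible cells, 31 matched 1 RefSeq gene and 28 had a promoter in the table. CCAAT stood in 25 of these 28 within 250 bases (89.3%), against 33.8% of all 32851 promoters. TATAAA stood in 13 (46.4% against 12.4%), and the octamer ATTTGCAT in 8 (28.6% against 1.60%), 5 of them H2A and 3 H2B genes. AAACACA stood in 6 of the 28 (21.4% against 6.25%), of which 4 were among the 5 H1 promoters, 1 was that of the H2A gene Hist1h2ab and 1 that of the H2B gene Hist1h2bm, and its letters overlapped a TATAAA in 0 of the 28. TTTGAA stood in 13 of the 28 (46.4% against 16.0%) and the E2F letters TTTCCCGC in 1 (3.57% against 0.895%). All 6 motifs were searched on both strands. Of 21 promoters of the G2 and mitosis list, CCAAT stood in 16 (76.2%) and TTTGAA in 5 (23.8%). A match is a stretch of letters and not a measured binding site.

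Histone-rich cells were deep. Their median was 29290 UMIs (5210 to 90073) and 5459 genes, against a median of 21787.5 UMIs in replication-entry cells, 32122 in G2 and mitosis cells and 19722 in cells of none. The median mitochondrial share was 7.41%. UMIs of all Hist genes together made up a median of 38.9 per 10000 (13.2 to 279.7), against 3.11 in replication-entry cells, 7.39 in G2 and mitosis cells and 3.70 in cells of none. These values chose the cells and are a description. The last cell chosen held 10 histone-group UMIs of 10869, 9.20 per 10000, and the first cell not reaching the rank held 53 of 58253, 9.10 per 10000, so the cells run on without a gap at this limit. A histone rank of at least 0.80 was reached by 328 cells, of which 30 ranked at least as high for replication entry and 73 for mitosis.

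Top2a and Esco2 are marker genes that the rule did not use. They were named with these data known, and Top2a is also a gene of G2 and mitosis. Their values therefore describe the cells and are no independent check of the label. Top2a, the topoisomerase that untangles replicated DNA, had a median of 7.85 UMIs per 10000 in histone-rich cells, 0.916 in replication-entry cells, 5.47 in G2 and mitosis cells and 0 in cells of none. Esco2, the acetyltransferase that ties sister chromatids together behind the fork, had a median of 1.17, 0, 0.289 and 0 in the same order. A UMI of Esco2 was found in 93.8% of histone-rich cells, and in 48.9% after each cell was thinned to 5000 UMIs, against 17.7% of thinned G2 and mitosis cells and 9.67% of thinned replication-entry cells. The epithelial keratin and junction genes had a UMI in every histone-rich cell, with a median of 61.2 per 10000 and a lowest of 3.54. Epcam was at 0 in 1 cell. Many of the cells also carried mitotic transcripts. Of the 225 cells, 97 had a mitotic rank of at least 0.80, 25 a replication-entry rank of at least 0.80, 1 both, and 104 neither.

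**Figure D1:**
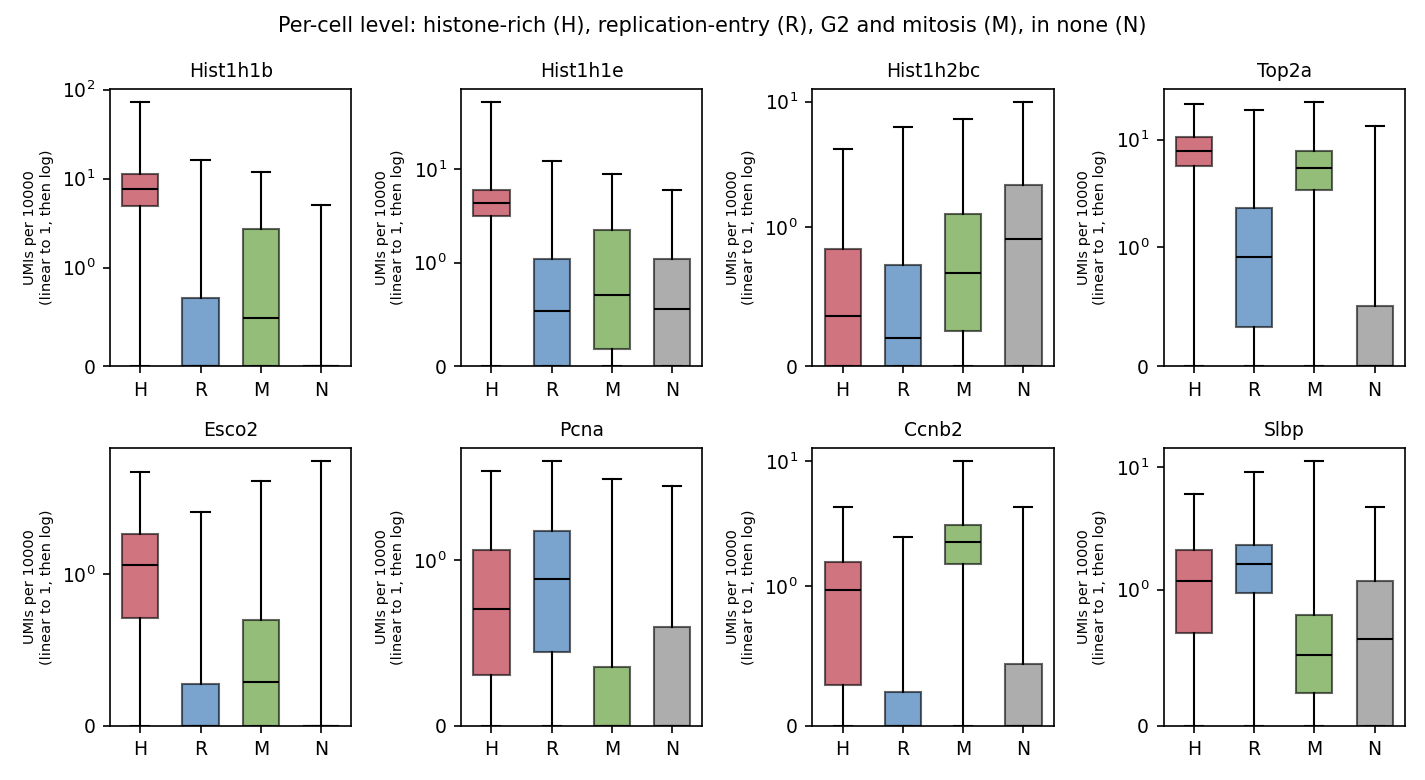
UMIs per 10000 of 8 genes in single cells of the histone-rich (H, 225 cells), replication-entry (R, 300), G2 and mitosis (M, 231) and remaining sets (N, 879). Boxes span the quartiles with the median as a line, whiskers reach the lowest and highest cell, and the axis is linear to 1 and logarithmic above. Hist1h1b and Hist1h1e are highest in H, Pcna and Slbp in R, and Ccnb2 in M, while Top2a is high in both H and M and Hist1h2bc is highest in N.

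Hist genes outside the rule were also higher in histone-rich cells. Of the 67 Hist genes listed, 63 had a UMI in an eligible cell, and CPM, the UMIs per 1000000 of the summed cells, was above that of the other eligible cells for 59 of the 63. Of the 63, 33 were at least 1.5-fold higher and 1 lower. Of the 32 Hist genes with at least 200 UMIs, 27 were at least 1.5-fold higher and 1 lower than in the other eligible cells, with a median log2 ratio of 1.34. Over all 9697 genes with that many UMIs 3.2% were higher and 2.05% lower, with a median of 0.01. Since the rule ranked these same cells, nothing is read from the counts in this or the later contrasts between sets. Outside the rule 22 of 27 Hist genes were higher and 1 lower. Against cells of none 28 of 32 were higher and 1 lower, where 6.19% of all genes were higher and 3.83% lower. The 5 genes of the rule held 61.5% of the 29052 Hist UMIs of the histone-rich cells.

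Linker histone genes are given first. Hist1h1b reached 872 CPM (851 to 894) in histone-rich cells, against 90.3 in replication-entry cells, 175 in G2 and mitosis cells and 19.9 in cells of none. Its per-cell median was 7.62 UMIs per 10000 in histone-rich cells and 0 in replication-entry cells, though the highest replication-entry cell reached 16.0. Hist1h1e, which the rule did not use, had 474 CPM (458 to 490) against 87.8, 146 and 72.2 in the same order. Hist1h1d had 90.9 CPM against 18.5, 31.9 and 8.95, and Hist1h1a 105 against 13.7, 18.1 and 4.12. Hist1h1c had 90.7 CPM against 20.7, 40.9 and 37.3. For Hist1h1c and Hist1h1e, cells in none of the sets were thus less far below than for Hist1h1b, and 68.1% of them held a Hist1h1e UMI, against 22.8% for Hist1h1b. As a class the 6 H1 genes summed to 1634 CPM, against 231, 412 and 143.

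Among core histones, Hist1h2ap reached 916 CPM (895 to 939) against 113 in replication-entry cells, 282 in G2 and mitosis cells and 33.4 in cells of none. Hist1h2ap matched 2 RefSeq genes, so its reads may come from more than 1 copy. Hist1h2ae had 459 CPM against 45.5, 119 and 18.0, and Hist1h3c 94.99 against 6.98, 26.3 and 3.69. The H4 gene Hist1h4d had 124 CPM against 19.4, 56.5 and 11.8. The H2A genes Hist2h2ac and Hist1h2ab, outside the rule, had 77.2 and 54.4 CPM against 6.0 and 1.89 in cells of none. Summed by class, H2A genes had 1618 CPM against 203, 492 and 84.0, H3 genes 220 against 29.9, 75.4 and 20.2, and H4 genes 281 against 65.3, 132 and 46.9. H2B genes had 229 CPM against 89.1, 154 and 159, the smallest difference of the 5 classes.

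Hist1h2bc was the exception in the H2B class. It had 59.9 CPM (54.4 to 65.8) in histone-rich cells, 59.7 in replication-entry cells, 86.4 in G2 and mitosis cells and 139 in cells of none. It was the only Hist gene at least 1.5-fold lower than in the other eligible cells, with a log2 ratio of -0.79, and -0.77 without differentiated and immune cells. It no longer passed 1.5-fold with a rank threshold of 0.70 or with 50 CPM added, at -0.55 in both. A UMI of Hist1h2bc was found in 65.3% of histone-rich cells and 70.5% of cells of none, and in 24.4% and 40.6% after thinning to 5000 UMIs. Hist1h2bj, the H2B gene with the next most UMIs, did not share this order, with 26.9 CPM in histone-rich cells against 4.14, 12.3 and 1.80.

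**Figure D2:**
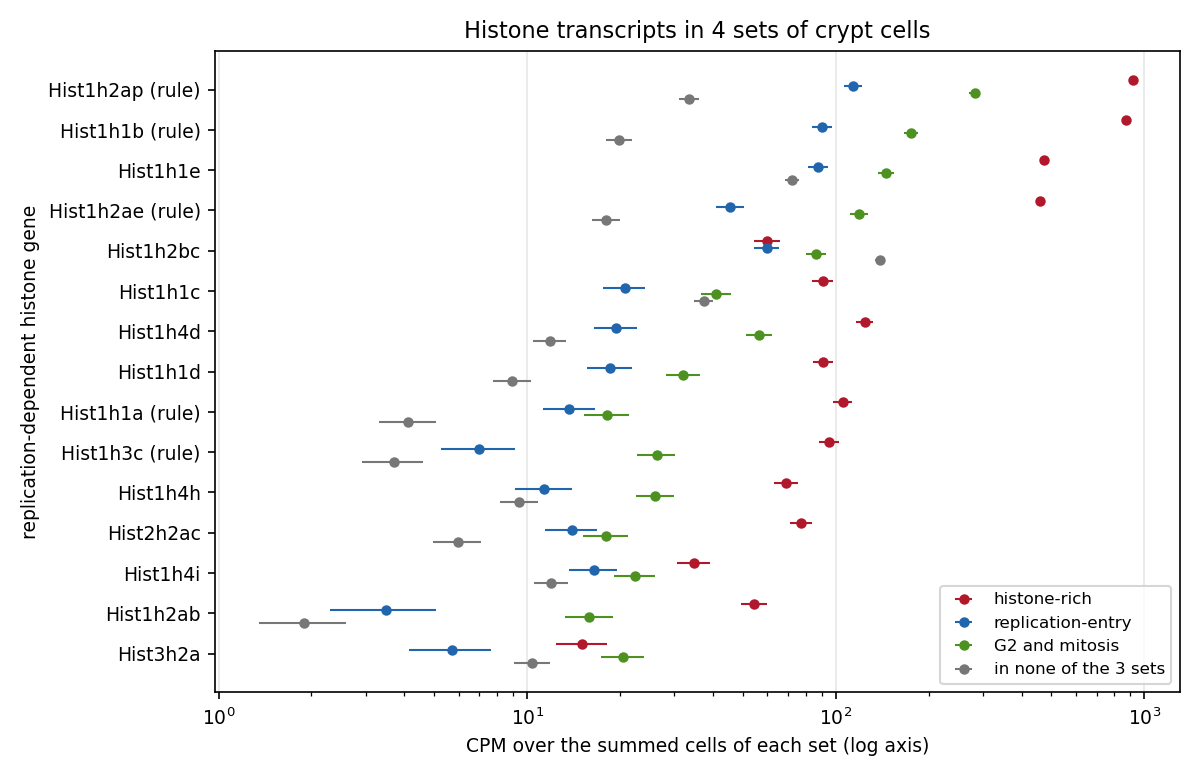
CPM over the summed cells (log axis) of the 15 Hist genes with most UMIs over the eligible cells, in the 4 sets. Bars are exact 95% Poisson intervals, which cover counting error only, and genes of the rule are marked. The histone-rich point lies to the right of the other 3 sets for 13 of the 15 genes, and for Hist1h2bc and Hist3h2a it does not.

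Each histone gene of the rule was also read in cells ranked without it. Leaving out 1 gene at a time chose 223 to 232 cells, of which 214 to 223 were among the 225. In cells ranked without it, Hist1h1b had 845 CPM against 71.3 in the remaining eligible cells, a log2 ratio of 3.39. The ratio was 3.06 for Hist1h2ae, 2.996 for Hist1h2ap, 2.58 for Hist1h1a and 2.45 for Hist1h3c. Each gene was thus high in cells chosen by the other 4. Those cells were largely the same 225, so the ratios describe the choice and are no independent check of it.

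Histones that are made throughout the cycle gave a mixed picture. Of 9 such genes 3 were at least 1.5-fold higher than in the other eligible cells and 0 lower, with a list median of 0.53. H2afx, the variant that is phosphorylated at DNA breaks, was at 318 CPM against 97.7 (log2 ratio 1.61). H2afz, a variant of active promoters, was at 1969 CPM against 1079 (0.86), and the linker variant H1f0 at 351 against 182 (0.92). H3f3b, which encodes the replacement histone H3.3 and had the most UMIs, was at 2124 CPM against 1463 (0.54), and H2afj at 312 against 289 (0.11). Against G2 and mitosis cells 0 of the 9 passed 1.5-fold in either direction, where H2afx was at 307 CPM.

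Outside the histone family, the genes that stood highest against the other eligible cells belonged to S phase and to mitosis. Esco2 had 130 CPM (122 to 139) against 18.5 and a log2 ratio of 2.30. Top2a had 794 CPM (774 to 815) against 184, a ratio of 2.05. Pclaf, a PCNA-binding protein of the fork, had 465 CPM against 111 (1.97), and the mitotic kinase Pbk 134 against 27.2 (1.95). The others of the 12 highest were the motor proteins Kif11 (1.78), Kif15 (1.75) and Kif4 (1.63), the kinase Aurkb (1.77), the proliferation antigen Mki67 (1.72), the kinetochore gene Spc25 (1.71), thymidine kinase Tk1 (1.71) and Rrm2 (1.64), the small subunit of ribonucleotide reductase. Mki67 had at least 1 UMI in all 225 cells, with a median of 6.81 per 10000.

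Genes of the replication machinery were in part higher. Of the origin licensing and firing genes 11 of 16 were higher and 0 lower (list median 0.60), from Cdc6 at 0.06 to Dbf4, the activator of the Cdc7 kinase, at 0.96. Geminin (Gmnn), which blocks relicensing, had 147 CPM against 76.7 (0.86). Of the replication fork genes 13 of 28 were higher and 0 lower (0.58), from Pole2 at -0.12 to the checkpoint mediator Clspn at 1.36, and Rfc1, a clamp loader subunit, had 117 CPM against 87.9 (0.37). Of deoxynucleotide supply genes 8 of 12 were higher and 0 lower (0.69), from Umps at 0.25 to Tk1 at 1.71, with the dCTP pyrophosphatase Dctpp1 at 222 CPM against 148 (0.55).

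Chromatin assembly, repair and cohesion were partly higher. Of histone mRNA processing and chromatin assembly genes 8 of 19 were higher and 0 lower (0.54). Within this list Asf1b, a histone chaperone, stood at 1.34 and the chromatin protein Dek at 509 CPM against 235 (1.08), while Lsm10 of the histone pre-mRNA processing particle stood at -0.27. Slbp itself had 139 CPM against 92.5 (0.54). Of fork checkpoint and recombination repair genes 13 of 22 were higher and 0 lower (0.67), from Msh6 at -0.13 to Rad51ap1 at 1.44, with Topbp1 at 100 CPM against 63.1 (0.60). Of cohesion genes 3 of 14 were higher (0.36), namely Esco2, Cdca5 (sororin, 1.24) and the cohesin subunit Smc1a at 300 CPM against 195 (0.59), while the related acetyltransferase Esco1 stood at -0.05.

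Regulators of the cycle were divided. Of 22 cyclin, kinase and E2F genes 8 were higher and 0 lower (0.28), from the cyclin Ccnd2 at 349 CPM against 440 (-0.32) to Fbxo5, an inhibitor of the anaphase-promoting complex, at 70.6 against 16.7 (1.59). Of the CDK inhibitors 2 of 6 were higher and 3 lower. Cdkn2d (1.11) and Cdkn2c (0.84) were the higher pair, and Cdkn2b (-0.90), Cdkn1c (-0.88) and Cdkn1a, the p53 target p21, at 48.8 CPM against 83.2 (-0.66), were the lower ones. For Cdkn1a the ratio was 0.04 once differentiated and immune cells were left out. Of the G2 and mitosis list 21 of 24 were higher and 0 lower (1.20), from the securin gene Pttg1 at -0.07 to Top2a at 2.05.

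The lowest genes were products of differentiated cells. Among the Paneth cell products, Defa30 (-5.90), Defa29 (-5.24), Defa36 (-4.98), Defa24 (-4.96), Lyz1 (-4.76), Itln1 (-4.37), Mptx2 (-4.04) and Defa17 (-3.55) were all lower. The hormone genes Cck (-4.62), Ghrl (-4.31) and Gcg (-4.13) and the colipase gene Clps (-3.87) completed the 12 lowest. Of 7 Paneth-like markers 7 were lower, and of 13 enterocyte-like markers 10, from Rbp2 at -2.99 to Cps1 at 0.17. Defa24, which only Paneth cells are known to make in quantity, was found in 98.2% of histone-rich cells at a median of 2.22 UMIs per 10000. No cell type is read from a UMI of such a gene, and the source of these UMIs was not tested. Leaving out cells in the top 10% of eligible cells for goblet-, Paneth-, enteroendocrine- or enterocyte-like markers and cells with over 20 immune UMIs per 10000 kept 195 histone-rich and 955 other cells. The count of lower genes was then 21 in place of 199, and that of higher genes 235 in place of 310, all 235 among the 310.

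Histone-rich cells were next compared with replication-entry cells. Of 9697 genes 2.62% were higher in histone-rich cells and 0.485% lower, with a median log2 ratio of 0.00. Of the G2 and mitosis list 23 of 24 were higher and 0 lower (list median 2.12). Nusap1, a spindle microtubule protein, had 189 CPM against 10.6 (3.27) and Hmmr, a spindle assembly factor, 123 against 6.59 (3.01). Birc5 (2.69), Prc1 (2.52), Kif11 (2.51), Cenpe (2.43), Tpx2 (2.42) and Cdca3 (2.41), all of the mitotic machinery, came next. Ccna2, the cyclin of S and G2, had 126 CPM against 24.6 (1.98).

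Gip and Zg16 stood above them, with ratios of 4.36 and 4.20, but rested on few cells. A single cell held 4123 of the 5810 Gip UMIs of the histone-rich cells, and 5 cells held 96.1% of the UMIs of Zg16, a goblet cell product. All 8 goblet-like markers were at least 1.5-fold higher than in replication-entry cells, with 14 histone-rich cells (6.22%) and 13 replication-entry cells (4.33%) in the goblet-like top 10%. Without differentiated and immune cells the ratios were -0.10 for Gip and 0.01 for Zg16.

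Among the 10 lowest genes against replication-entry cells were several of DNA replication. Cdc6, which loads the replicative helicase, had 11.8 CPM (9.43 to 14.6) in histone-rich cells against 33.2 in replication-entry cells (-0.99). Hells, a chromatin remodeller, had 83.1 against 168 (-0.93), the mismatch repair gene Msh6 27.6 against 61.7 (-0.93) and the transcription factor E2f1 14.3 against 35.2 (-0.90). Acot1 (-0.88), Alkbh2 (-0.87), Marcksl1 (-0.77) and Pole2 (-0.75) were also lower. Ghrl (-2.56) and Cck (-1.88) were the lowest of all, and Cck had a ratio of 0.05 without differentiated and immune cells. Cyclins E1 and E2 did not reach 1.5-fold, with Ccne1 at 19.5 CPM against 33.4 (-0.56) and Ccne2 at 9.87 against 19.0 (-0.55). Of the origin licensing and firing list 1 of 16 was higher (Dbf4, 1.28) and 2 were lower, Cdc6 and Mcm5 (-0.58), with a list median of -0.04. Of the fork genes 1 of 28 was higher and 1 lower, with a list median of -0.18.

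Against G2 and mitosis cells the order was reversed. Of 9697 genes 1.47% were higher in histone-rich cells and 0.598% lower, with a median of -0.03. Of the replication fork list 20 of 28 were higher and 0 lower (0.74), of the chromatin assembly list 11 of 19 (0.68) and of deoxynucleotide supply 7 of 12 (0.78). Rrm2 had 76.5 CPM (70.3 to 83.1) against 17.6 (1.65). Lig1, the ligase that joins Okazaki fragments, had 156 against 47.6 (1.52) and the sliding clamp Pcna 79.6 against 23.4 (1.42). The other genes of the 10 highest were Atad2 (1.45), Slfn9 (1.39), Clspn (1.37), the polymerase alpha subunits Pola1 (1.32) and Prim1 (1.26), Esco2 (1.31) and the maintenance methyltransferase Dnmt1 (1.26). Slbp had 139 CPM against 61.7 (1.05).

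Of the mitotic list 0 of 24 were higher than in G2 and mitosis cells and 2 lower (-0.32). The 2 were Knstrn, a spindle protein, at 60.7 CPM against 143 (-1.11) and the mitotic cyclin Ccnb2 at 109 against 231 (-1.01). Cdc25b (-1.15), the phosphatase that opens mitosis, Cep89 (-1.12), Arl6ip1 (-1.07), Nek2 (-1.04), Chac2 (-0.99) and Aspm (-0.99) were lower as well. Cck (-3.05) and Gcg (-1.28) were the lowest, with ratios of 0.08 and 0.03 without differentiated and immune cells. Top2a was at 794 CPM against 578 (0.45) and Mki67 at 704 against 607 (0.21), both within 1.5-fold.

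**Figure D3:**
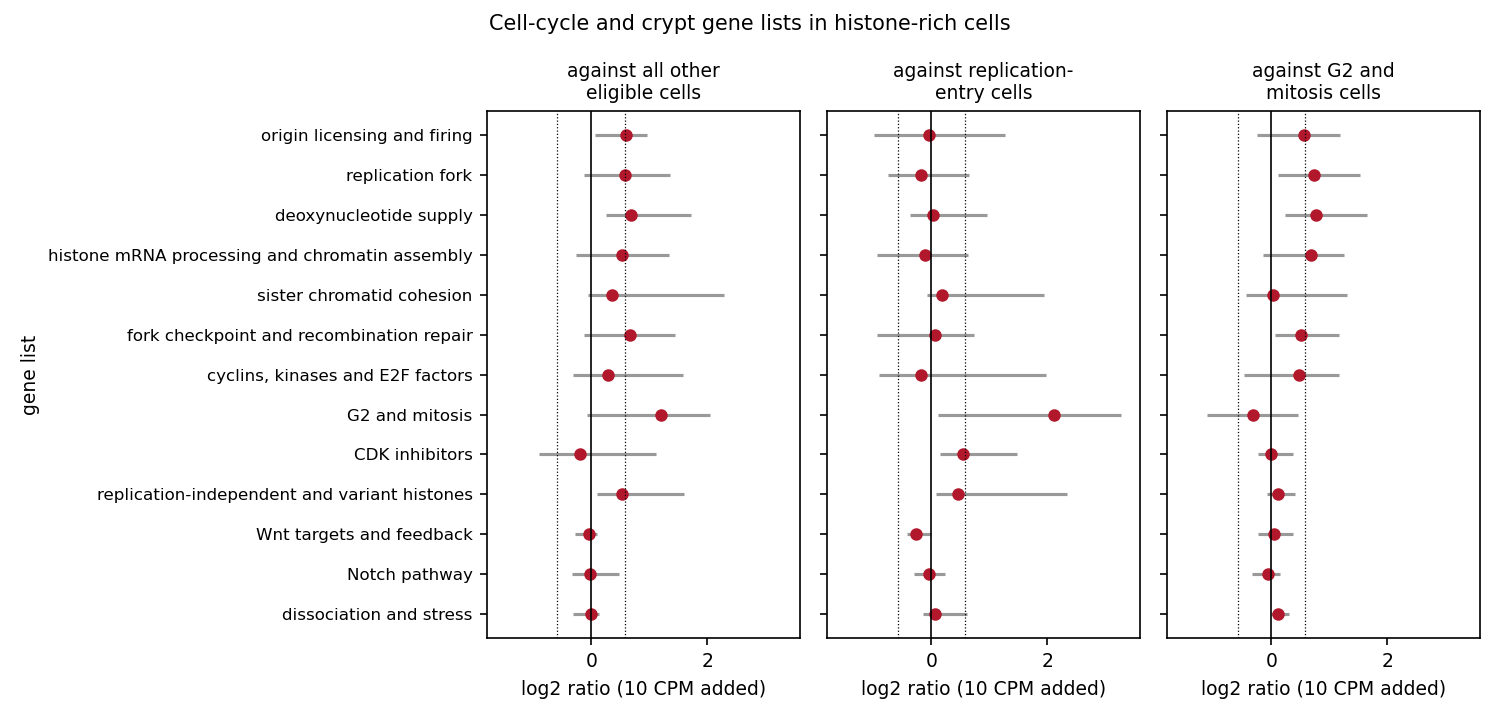
Median log2 ratio (point) and range (line) of the tested genes of 13 lists in histone-rich cells against the other eligible cells, replication-entry cells and G2 and mitosis cells. Dotted lines stand at 1.5-fold. The G2 and mitosis list moves from 1.20 and 2.12 in the first 2 panels to -0.32 in the third, and the replication fork list from -0.18 in the second to 0.74 in the third.

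The histone-rich cells were not uniform. In 49 of them the replication-entry rank was above the mitotic rank, and in 176 below. The split itself used the replication-entry and mitotic genes of the rule, so only other genes are described, with no test. Of all 9697 genes 1.14% were higher in the 49 cells and 1.7% lower. Of the replication fork list 14 of 28 were higher in the 49 cells and 0 lower, and of the G2 and mitosis list 0 were higher and 12 of 24 lower. Slbp had 230 CPM in the 49 cells against 117 in the 176 (0.92). Ccne1 had 44.3 against 13.6 (1.20), Ccne2 26.4 against 5.94 (1.19), Uhrf1, which guides maintenance methylation, 147 against 65.6 (1.06) and Mcm5 of the helicase 122 against 54.4 (1.04). Ccnb2 had 33.6 against 127 (-1.65) and Cenpe 85.7 against 196 (-1.11). Of 32 Hist genes 0 were higher and 2 lower in the 49 cells, with a median ratio of -0.21 against -0.03 over all genes. The median Hist share was 36.5 UMIs per 10000 in the 49 cells and 39.6 in the 176. All 225 cells were chosen for a high histone rank, so nothing is read from these Hist values. Esco2 was at 133 CPM in the 49 cells and 129 in the 176. Across all 1635 eligible cells the histone share and the mitotic share had a Spearman correlation of 0.53, and the histone and replication-entry shares 0.13. The replication-entry and mitotic shares had -0.07 over the eligible cells and -0.51 within the 225 cells. Both shares were used by the rule, which kept their ranks below the histone rank in the 225 cells, so nothing is read from the latter value. These correlations share their denominator, the UMIs of the cell.

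Crypt identity genes differed little. Of 14 stem-like markers 0 passed 1.5-fold against the other eligible cells, from Gkn3 at -0.49 to Smoc2 at 0.18, with Lgr5 at 71.0 CPM against 83.3 (-0.20) and Olfm4 at 4255 against 4460 (-0.07). In the top 10% of eligible cells by the summed stem-like list were 4 histone-rich cells (1.78%, 0.486 to 4.49), 34 replication-entry cells (11.3%, 7.98 to 15.5), 4 G2 and mitosis cells (1.73%) and 122 cells of none (13.9%). The median of that list was 51.5 UMIs per 10000 in histone-rich and 76.6 in replication-entry cells. Olfm4 alone gave 4255 of the 6012 CPM of the list in histone-rich cells, so the summed list mostly ranks Olfm4. Of 11 Wnt target genes and of 8 Notch pathway genes 0 passed 1.5-fold. Sox9 stood at -0.29 and Znrf3 at 0.09, Hes1 at -0.17, Nrarp at 0.49 and Dll1 at -0.33. Of 11 dissociation and stress genes 0 passed, from Junb at -0.31 to Hspa1a at 0.14, with Jun at 918 CPM against 893.

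Some histone-rich cells carried transcripts of secretory cells. The goblet-like top 10% held 14 of them (6.22%, 3.44 to 10.2), the Paneth-like 13 (5.78%), the enteroendocrine-like 13 (5.78%), the early secretory list 15 (6.67%) and the enterocyte-like 2 (0.889%). In cells of none these shares lay between 12.7% and 17.9%. Goblet-like UMIs in the 14 cells ran from 69.6 to 1886 per 10000, and 0 of the 14 were among the top 6% of doublet scores. Of the 13 enteroendocrine-like cells 3 were, all of tags 1 and 2, and of the Paneth-like and enterocyte-like cells 0. Of the 225 cells 12 (5.33%, 2.79 to 9.13) had such doublet scores, against 1.67% of replication-entry and 6.49% of G2 and mitosis cells. Immune transcripts above 20 per 10000 were found in 2 histone-rich cells, and Lyz2, a myeloid gene, rested on 1 of them with 165 of 167 UMIs. These 2 cells had 3.54 and 18.8 epithelial UMIs per 10000, against a median of 61.2 in the histone-rich cells, so their place as crypt epithelium is uncertain. Of 9 T cell genes Cd3e, Cd3g, Cd8a, Gzmb and Nkg7 were at 0, and 14 of the 225 cells (6.22%) held a UMI of another of them, at most 1.15 per 10000. B or plasma cell genes reached 132 per 10000 in the highest histone-rich cell, and 22 cells (9.78%) were in the top 10% for that list. Of the 32 Cd79a UMIs 28 came from 1 cell, and of the 71 Igkc UMIs 55 did. Of 5 stromal genes Col1a1, Col1a2, Col3a1 and Dcn were at 0, and 1 cell held a UMI of the list. The part of doublets in these values was not tested.

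**Figure D4:**
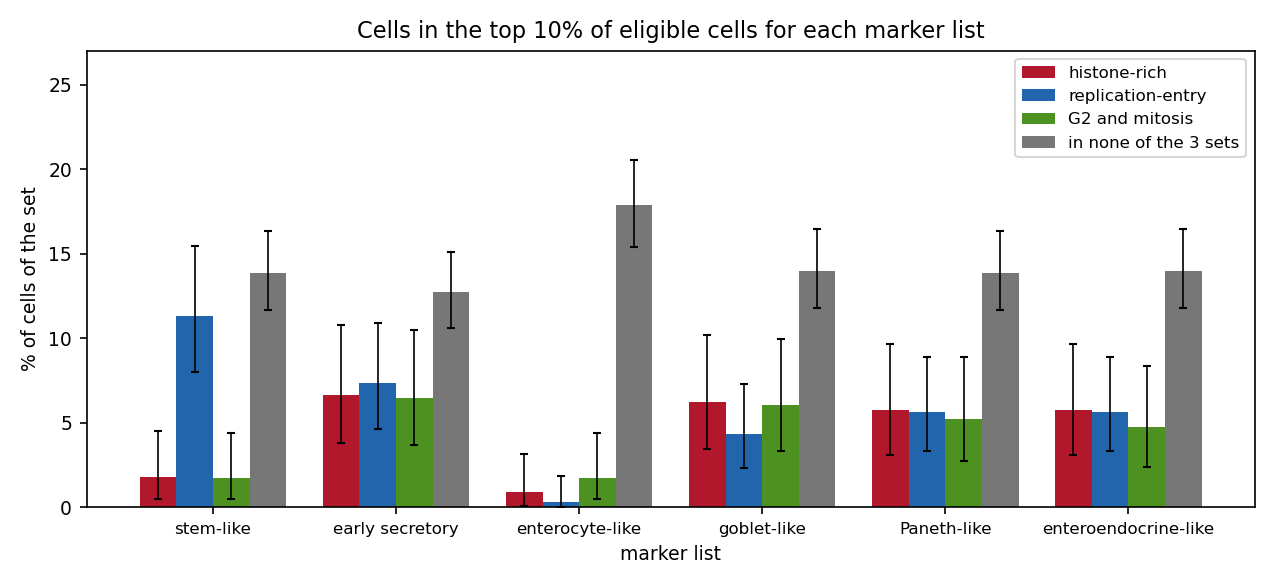
Share of each set's cells (percent, with exact 95% Clopper-Pearson intervals) that fall in the top 10% of eligible cells for 6 marker lists. For the stem-like list, which mostly ranks Olfm4, the histone-rich bar is 1.78% and the replication-entry bar 11.3%. The 2 sets lie close for the secretory lists.

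Both hashtag pairs held histone-rich cells in like shares. They made up 82 of 581 eligible cells of tags 1 and 2 (14.1%, 11.4 to 17.2), 35 of 268 of tags 3 and 4 (13.1%, 9.27 to 17.7) and 108 of 786 cells not assigned (13.7%, 11.4 to 16.3). Among cells with Xist alone the share was 13.4% for both pairs (52 of 389 and 35 of 261). In tags 1 and 2, among cells with Y-linked UMIs and Xist at 2 or fewer, it was 17.4% (27 of 155, 11.8 to 24.3). The intervals overlap throughout and cover counting error only.

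YFP marked part of the histone-rich cells in 1 pair. In tags 1 and 2, 26 of 82 cells held 3 or more YFP UMIs (31.7%, 21.9 to 42.9), with a median of 18 and a highest of 30 UMIs in those cells. In tags 3 and 4 the count was 0 of 35, which allows up to 10.0%, and the highest cell had 1 UMI. Of the unassigned cells 2 of 108 had 3 or more. Summed YFP was 154 CPM (140 to 169), 3.02 (0.823 to 7.73) and 7.70 CPM. The share in tags 1 and 2 was 34.6% of 52 cells with Xist alone and 25.9% of 27 with Y-linked UMIs. In the same pair 22.3% of replication-entry cells (14.7 to 31.6), 36.5% of G2 and mitosis cells (25.6 to 48.5) and 29.8% of cells of none had 3 or more YFP UMIs, and the intervals overlap. Over all pairs YFP was at 61.4 CPM in histone-rich cells against 45.2 in the other eligible cells (log2 ratio 0.37), tdTomato at 7.81 against 12.5 (-0.34) and Chga at 22.5 against 29.3 (-0.28). The Chga limit of the rule applied to the histone-rich and the other eligible cells alike. Its part in the Chga ratio was not tested.

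**Figure D5:**
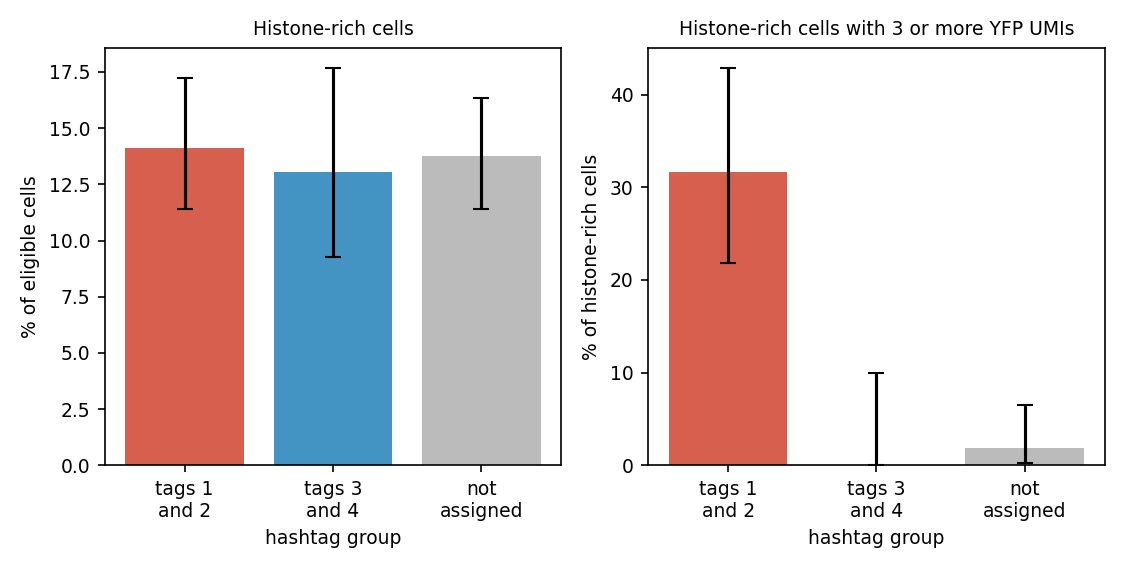
Left, histone-rich cells as a percentage of eligible cells in each hashtag group. Right, percentage of histone-rich cells with 3 or more YFP UMIs. Bars carry exact 95% Clopper-Pearson intervals. The shares on the left are 14.1%, 13.1% and 13.7%, and those on the right 31.7%, 0% and 1.85%.

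Within histone-rich cells the tag pairs were compared gene by gene. Of 8731 genes with at least 50 UMIs 1.35% were higher in tags 1 and 2 and 0.939% lower. The goblet cell genes Fcgbp (5.01), Agr2 (4.34), Tff3 (4.31) and Clca1 (4.29), the hormone gene Gip (4.33) and YFP (3.65) were the highest. All 8 goblet-like markers were higher, where 6 of 82 cells of tags 1 and 2 and 0 of 35 of tags 3 and 4 were in the goblet-like top 10%. Of 8 enteroendocrine-like markers 6 were higher and 0 lower (list median 1.05). In the enteroendocrine-like top 10% were 6 of 82 cells of tags 1 and 2 and 1 of 35 of tags 3 and 4. The 5 richest cells of tags 1 and 2 held 1281 of 1450 Fcgbp UMIs, and 1 cell held 1456 of 1513 Gip UMIs. Without differentiated and immune cells the ratios were 0.94 for Fcgbp, 0.36 for Agr2, 0.11 for Gip and 3.72 for YFP. With only the 52 cells of tags 1 and 2 that had Xist and no Y-linked UMI, Gip stood at 0.26. In these cells Fcgbp was at 4.97, Agr2 at 4.06, Tff3 at 4.31, Clca1 at 3.77 and YFP at 3.74.

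Lower in tags 1 and 2 were Reg3b (-3.38) and Reg3g (-2.30), antimicrobial lectins, Igkc (-2.16), Reg1 (-1.33), Lcn2 (-1.12) and Tap1 (-1.04), which moves peptides for MHC class I. Of the 2281 Reg3b UMIs of tags 3 and 4, 1386 came from 1 cell, and of the 61 Igkc UMIs 55 did. Tap1 rested on more cells, with a UMI in 74.3% of cells of tags 3 and 4 and 41.5% of tags 1 and 2. In cells with Xist alone the ratios were -2.85 for Reg3b, -1.86 for Reg3g, -2.12 for Igkc, -0.97 for Reg1, -1.09 for Lcn2 and -0.90 for Tap1. Of the cell-cycle lists, 0 of 27 replication fork genes passed 1.5-fold between the tag pairs, and 0 of 24 G2 and mitosis genes were higher and 1 (Ccnf, -0.84) lower. Of 22 fork checkpoint and repair genes 1 (Chek1, 0.60) was higher in tags 1 and 2, and of 6 CDK inhibitors 2 (Cdkn1a, 0.75, and Cdkn1c) were higher. The 5 marker genes had a median of 0.02. In the dissociation and stress list 5 of 11 were higher in tags 1 and 2 (list median 0.58), namely Hspa1b at 54.4 CPM against 7.55 (1.87), Hspa1a at 99.5 against 28.7, Atf3 (0.88), Egr1 (0.71) and Fos (0.66). Their part in the differences between the tag pairs was not tested. The gene lists were not compared between tag pairs in cells with Xist alone.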

How the data were processed

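Gene expression and hashtag antibodies were counted in 1 gene expression library and 1 hashtag library. The submitters' processing notes name Cell Ranger, Seurat and the human build GRCh38, without roles, and software version 3.1.0 stands in the header of the deposited matrix. The gene identifiers are mouse Ensembl identifiers. The authors' deposited count table holds raw counts of unique molecular identifiers (UMIs) for the cells they kept, and their deposited hashtag counts are raw as well. The filter on cells is not given in those notes.

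The selection rule, the gene lists and the comparisons were chosen with earlier results of these data known. UMIs were summed over the cells of a set and given per 1000000 (CPM). Ratios are log2 with 10 CPM added, for genes with at least 200 UMIs over the eligible cells, and a gene is called higher or lower past 1.5-fold. Intervals at 95% are exact Poisson for sums and exact Clopper-Pearson for shares, and cover counting error only. With 1 library and no replicate no test was made. Cells were assigned to a tag pair when that pair held at least 3 times as many hashtag counts. Named genes were the 12 highest and 12 lowest ratios against the other eligible cells, 10 and 10 against each cell-cycle set, and 6 and 6 between tag pairs (at least 50 UMIs over the histone-rich cells). They had to be found in at least 10% of the cells of the higher set and have intervals apart. Mitochondrial genes, unnamed models, the 17 genes of the rule and Hist genes were left out of that ranking. The 10 Hist genes with most UMIs and, of each list, the members with most UMIs and with the highest and lowest ratio were also named, as were the 5 markers, YFP, tdTomato and Chga. Other genes, the 6 promoter motifs, the promoters printed and the threshold for immune transcripts were chosen after their values or sequences were seen.

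Doublets were left in for the values given first. Scrublet marked 2 kept cells by its own threshold (0.0857%), and whether it missed doublets was not tested. The 6% of kept cells with the highest scores were left out as an alternative. For shares of cells with a UMI at equal depth, cells were thinned to 5000 UMIs. The script that computes the ratios was checked on simulated counts with known fold changes. Other settings tried were rank thresholds, a depth limit of 10000 UMIs, ranking after thinning, pseudocounts, gene filters, equal weight per cell and other tag and YFP rules. Versions were Python 3.11.15, numpy 2.4.6, scipy 1.17.1, pandas 2.3.3, scanpy 1.11.5 and matplotlib 3.10.9.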

Additional observations from a re-analysis of the deposited data

Results flagged for a closer look

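Among barcodes that the authors did not keep, 311 had at least 5000 UMIs, fewer than 20 Chga UMIs and a mitochondrial share within the highest of the kept cells (12.5%). Of these, 19 met the histone rule when ranked against the eligible cells, 6.11% (3.72 to 9.38). They stand here because they lie outside the cells used for every comparison. Their median was 10860 UMIs, against 29290 in the histone-rich cells. Their median hashtag count was 65, against 248 in the histone-rich cells, of which the lowest had 78. With no limit on the mitochondrial share, 282 left-out barcodes met the rule, of 1838 with enough UMIs and few Chga UMIs.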

How the results depend on the processing

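No paired analysis was possible because the series has 1 library and no result comes from a test. With 35 histone-rich cells in tags 3 and 4, 0 cells with 3 or more YFP UMIs allows a share of up to 10.0%. Among single genes and list medians, 2066 of the alternative values stayed within the same call and 48 moved. A further 39 newly passed and 52 no longer passed 1.5-fold, and 11 reversed. A gene filter cannot change the ratio of a single gene, and histone genes of the rule were among the values. Part of the 2066 was therefore fixed in advance, and the total is no measure of stability.

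With the rank threshold at 0.90, histone-rich cells were 8.75% of eligible cells, 8.78% in tags 1 and 2 and 7.84% in tags 3 and 4, and 111 genes were lower than in replication-entry cells and 88 lower than in G2 and mitosis cells. At 0.70 they were 17.3% of eligible cells and 18.4% in tags 1 and 2, with 31 genes lower than in replication-entry cells. The shares move by construction, and why the counts of genes moved was not tested. A 10-fold tag rule gave 7.69% in tags 3 and 4, from 3 of 39 cells. YFP counted from 1 UMI was found in 11.4% of histone-rich cells of tags 3 and 4. With 1 CPM added, 484 genes were higher and 506 lower than in the other eligible cells, 451 and 270 against replication-entry cells, and 316 and 230 against G2 and mitosis cells. With 50 CPM added the counts were 119 and 64, 118 and 12, and 45 and 18. Among genes with at least 1000 UMIs, which are fewer, 174 were higher and 129 lower than in the other eligible cells, 143 higher than in replication-entry cells, and 83 higher and 35 lower than in G2 and mitosis cells. Against cells in none of the sets alone the counts were 600 and 371. Without differentiated and immune cells, an alternative chosen after seeing the data, histone-rich cells were 18.2% of tags 1 and 2, and 21 genes were lower than in the other eligible cells.

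The reversals concern few genes. The Cck ratio against replication-entry cells was 0.029 at a threshold of 0.90, 0.33 at 0.70 and 0.051 without differentiated and immune cells. Against G2 and mitosis cells Cck was 1.21 at 0.70 and 0.075 without those cells, and Gcg was 0.064 at 0.90, 1.34 when cells were ranked after thinning and 0.027 without those cells. Without them the ratio against the other eligible cells was 0.012 for Cck and 0.038 for Cdkn1a, and Gip stood at -0.10 against replication-entry cells. The cause was not tested. Hist1h2bc stood at -0.55 against the other eligible cells both at a threshold of 0.70 and with 50 CPM added.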
